A study of Mus musculus with 10 samples.

Results

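Expression of 6 genes that mark epithelial cells and pituitary stem cells was examined in the intermediate lobe (IL) of the mouse pituitary: Cdh1 (E-cadherin), Cdh2 (N-cadherin), Epcam, Krt8 (keratin 8), Krt18 (keratin 18) and S100b. They were chosen by symbol and matched to the Ensembl identifiers of the expression table, which holds 29527 genes, and all 6 were found. All 6 also passed the minimum level for testing, a mean of 10 on the linear scale, among the 17268 genes that did. Total RNA from dissected ILs of 10 mice aged 2 to 3 months was sequenced, with 1 library per mouse: 4 wild-type (WT), 3 p27-/- and 3 that were p27-/-;Sox2+/-, called compound mutants here. Both mutant genotypes lack p27 (the Cdkn1b product, an inhibitor of cyclin-dependent kinases) in every cell from the germline, and the compound mutants are also heterozygous for Sox2. The mice were of mixed background. The authors list both sexes in each genotype, with more females than males in both mutant groups, and sex was not in the main fit. RNA came from whole dissected lobes, so each value describes a lobe and not a cell type. The table holds log2 values and no counts, so no depth is given for single libraries.

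The IL is an endocrine epithelium made mostly of melanotrophs, and SOX2-positive stem cells line the cleft that borders it. Cadherins hold neighbouring cells together through calcium-dependent adherens junctions, with catenins linking their tails to actin. EPCAM is a surface glycoprotein of epithelial cells, keratins 8 and 18 pair to form the intermediate filaments of simple epithelia, and S100B is a calcium-binding protein of glia and of folliculostellate and stem cells in the pituitary. In the pituitary, E-cadherin is known as a marker of the stem cell layer, whereas N-cadherin is carried by endocrine cells. Mice without p27 are known for tumours of the IL.

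Positions are given on GRCm38, except for Cdh2 (ENSMUSG00000024304), whose sequence and position are not shown. Cdh1 (ENSMUSG00000000303) lies at chr8:106603350-106670247. Epcam (ENSMUSG00000045394) lies at chr17:87635979-87651127 and S100b (ENSMUSG00000033208) at chr10:76253836-76261319. Krt8 (ENSMUSG00000049382), at chr15:101996711-102004342, and Krt18 (ENSMUSG00000023043), at chr15:102028216-102032026, are neighbours transcribed away from each other, with 23.9 kb between their start sites. RefSeq promoter windows of 250 bases before and 50 bases after the start, on GRCm38.p6, were found for 4 of the 6 genes. The windows of Epcam, Krt8 and Krt18 are shown here because Epcam is a gene whose level passed the test, and because Krt8 and Krt18 are neighbours that encode a filament pair. Capitals mark CACCTG or its reverse complement CAGGTG, the E-box letters that repressors of the SNAI and ZEB families are known to bind.
Epcam, chr17:87635729-87636028, plus strand: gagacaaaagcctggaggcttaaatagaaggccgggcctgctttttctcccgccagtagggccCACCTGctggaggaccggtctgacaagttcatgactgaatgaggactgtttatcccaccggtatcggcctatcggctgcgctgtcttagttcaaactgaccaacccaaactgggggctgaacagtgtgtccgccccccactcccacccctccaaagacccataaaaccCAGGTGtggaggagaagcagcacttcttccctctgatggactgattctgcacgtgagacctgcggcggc
Krt8, chr15:102004293-102004592, minus strand: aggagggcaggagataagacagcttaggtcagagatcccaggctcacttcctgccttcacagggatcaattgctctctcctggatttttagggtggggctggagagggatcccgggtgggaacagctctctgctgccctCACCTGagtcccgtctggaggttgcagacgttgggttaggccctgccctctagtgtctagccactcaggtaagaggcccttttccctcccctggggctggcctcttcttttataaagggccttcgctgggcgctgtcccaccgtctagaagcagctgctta
Krt18, chr15:102027966-102028265, plus strand: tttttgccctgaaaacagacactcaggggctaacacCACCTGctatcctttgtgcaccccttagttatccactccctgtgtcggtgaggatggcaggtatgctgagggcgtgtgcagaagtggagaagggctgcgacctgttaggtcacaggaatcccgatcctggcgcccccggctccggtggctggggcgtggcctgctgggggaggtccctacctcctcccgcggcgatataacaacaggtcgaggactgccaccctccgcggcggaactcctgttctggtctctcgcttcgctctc
The Epcam window held 2 matches, whose first bases lie 187 and 19 bases before the start. Krt8 held 1 match 111 bases before its start, Krt18 held 1 match 214 bases before its start, and the S100b window held 0. The letters occurred, on either strand, in 20.2% of the 32851 promoter windows of the same length, so a match is a description and not a site. Levels of the SNAI and ZEB genes themselves are given below with the related genes.

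The targeted genes were followed first, as a check of the labels. Cdkn1b was between 8.39 and 8.85 in the WT lobes, between 8.04 and 8.27 in p27-/- and between 7.73 and 8.10 in the compound mutants, on the log2 scale of the table. Every mutant library was below every WT library, although reads were still assigned to the gene. The difference from WT was -0.43 ± 0.12 (SE) in p27-/- and -0.72 ± 0.12 in the compound mutants (adjusted p = 0.047 and 0.00854 in limma). The p27-/- call was lost in 7 of 10 fits with 1 library left out and in 6 of 9 other settings. Sox2 was between 7.34 and 7.75 in WT, between 7.08 and 7.45 in p27-/- and between 6.88 and 7.07 in the compound mutants, which were thus the lowest 3 of the 10 libraries. Sox2 in compound mutants against WT gave a difference of -0.46 ± 0.13 (SE) with an adjusted p of 0.0811 in limma, which misses the threshold of 0.05 used throughout. The melanotroph genes Pomc (median 18.6) and Pax7 (median 11.7) were high in every library. The anterior lobe genes Gh (11.05 to 14.35) and Prl (11.40 to 17.54) and the posterior lobe gene Avp (median 4.77) were also measured in every library. WT replicate 2 had the highest anterior lobe and the lowest posterior lobe marker level of the 4 WT libraries. Its mean level of 8 anterior lobe genes was 1.52 above the 10-sample mean (the other WT libraries lay between -0.32 and 0.05). Its mean level of 9 posterior lobe genes was 0.64 below that mean, a centred value of -0.64 (others 0.54 to 0.79). Neither gap, as a share of the group's range, passed Dixon's 95% critical value for 4 samples. With 4 samples this rule can miss a real difference. It therefore does not decide whether this library differed from the other WT libraries in neighbouring tissue. Results of the 6 genes that turn on this library are given with and without it.

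Between p27-/- and WT, Cdh1 was lower and Epcam was higher, and the other 4 genes did not pass the test. These 2 of 6 calls stand beside 7.78% of the 17268 genes called in the same comparison (4.62% lower and 3.16% higher) by limma's test across all genes with Benjamini-Hochberg adjustment. Cdh1 fell by 0.58 on the log2 scale (a ratio of 0.668) and Epcam rose by 0.35 (a ratio of 1.27). No gene of the 6 passed the test in the compound mutants against WT (2 had an unadjusted p under 0.05), where 2.71% of all genes were called. Nor did any between the compound mutants and p27-/- (2 had an unadjusted p under 0.05), where 0.145% were called. All 3 comparisons share libraries and are therefore not independent, and the log2 values are normalised by the authors, so that a ratio may understate the change of a gene of low level. In whole lobes, fewer cells of a type and less RNA per cell cannot be told apart.

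**Figure D1:**
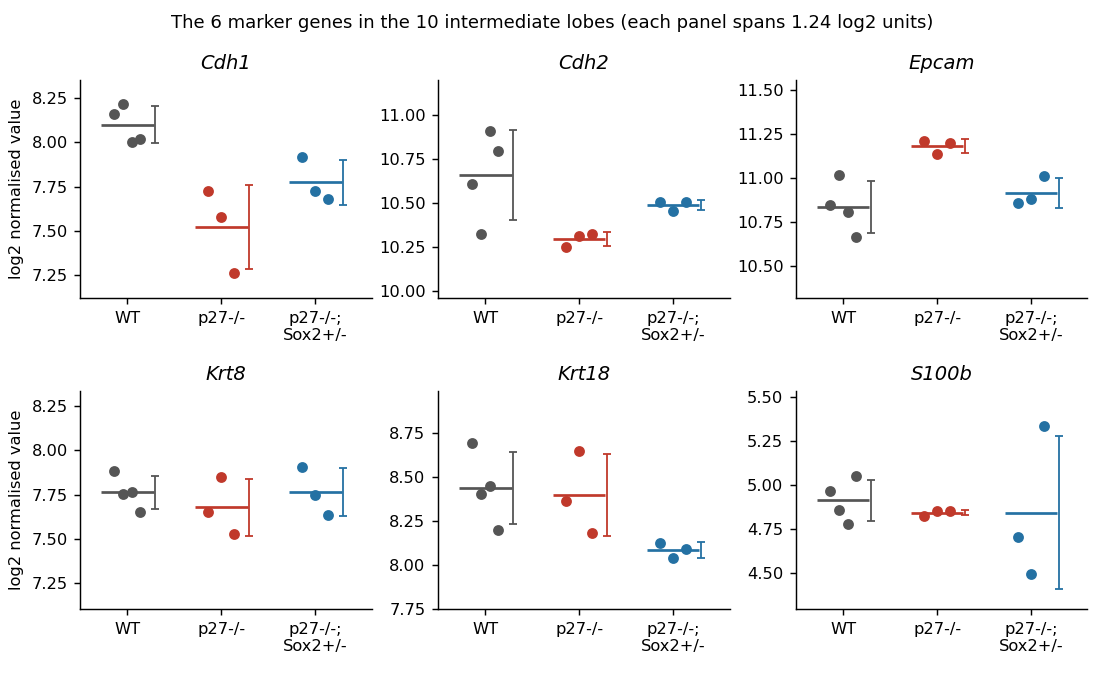
Log2 normalised value (vertical axis) of each of the 6 genes in each library, by genotype; horizontal bars are group means and vertical bars are ± 1 SD (n = 4 WT, 3 p27-/- and 3 p27-/-;Sox2+/-), and all panels cover the same span. The 3 p27-/- libraries sit below all WT libraries for Cdh1 (highest 7.73 against lowest 8.005) and above them for Epcam (lowest 11.14 against highest 11.02).

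Cdh1 encodes E-cadherin, the adhesion receptor of epithelial junctions. Its log2 values in the 4 WT lobes were 8.16, 8.22, 8.005 and 8.02. In the p27-/- lobes they were 7.73, 7.58 and 7.26, and in the compound mutants 7.92, 7.73 and 7.68. All 6 mutant libraries were below all 4 WT libraries, and the mutant genotypes overlapped each other. Group means were 8.10 ± 0.11 for WT (SD, n = 4), 7.52 ± 0.24 for p27-/- (SD, n = 3) and 7.77 ± 0.13 for the compound mutants (SD, n = 3). The p27-/- change from WT was -0.58 ± 0.12 (SE), with a 95% confidence interval of -0.84 to -0.32 and an adjusted p of 0.0126 in limma. In the compound mutants the difference from WT was -0.33, with an interval of -0.59 to -0.07 and an adjusted p of 0.168 in limma. Compound mutants against p27-/- gave 0.25 (interval -0.02 to 0.53, adjusted p = 0.826 in limma), so a smaller loss in the compound mutants was not shown. Without p27-/- replicate 3, which had the lowest value, the p27-/- change was -0.45 with an adjusted p of 0.0757.

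Cdh2 encodes N-cadherin, the classical cadherin of neural and endocrine cells. Its log2 values were 10.61, 10.32, 10.91 and 10.80 in WT, 10.25, 10.31 and 10.33 in p27-/-, and 10.50, 10.45 and 10.50 in the compound mutants. The p27-/- libraries overlapped WT only through WT replicate 2, and every compound mutant library was above every p27-/- library. The WT values spread more (SD 0.26, n = 4) than those of p27-/- (SD 0.04, n = 3) or the compound mutants (SD 0.03, n = 3). The difference of p27-/- from WT was -0.36 ± 0.11 (SE), with an interval of -0.61 to -0.11 and an adjusted p of 0.0704 in limma. Leaving out WT replicate 2 gave -0.47 with an adjusted p of 0.00803, the single setting of 19 in which this gene passed. Compound mutants against WT gave -0.17 (interval -0.42 to 0.08, adjusted p = 0.466 in limma), and compound mutants against p27-/- gave 0.19 (interval -0.07 to 0.45, adjusted p = 0.919 in limma). Over the 10 libraries, Cdh2 and the mean level of the 9 posterior lobe genes had Pearson's r of 0.75 and Spearman's rho of 0.624 (permutation p = 0.0121 and 0.0587, adjusted p = 0.139 for r over 69 pairs). Without WT replicate 2 r was 0.724, and without the 2 libraries farthest from the median Cdh2 value it was 0.504, so the relation rests partly on WT replicates 3 and 4. Within genotypes r was 0.728 with all libraries and 0.246 without WT replicate 2. The part of posterior lobe tissue in the Cdh2 values was not tested.

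Epcam encodes the epithelial cell adhesion molecule, which lies on the surface of cells rather than in the adherens junction. Its log2 values were 10.85, 11.02, 10.81 and 10.67 in WT, 11.21, 11.14 and 11.20 in p27-/-, and 10.86, 10.88 and 11.02 in the compound mutants. The p27-/- libraries were above all others, and the compound mutants lay within the WT range. Means were 10.84 ± 0.15 (SD, n = 4), 11.18 ± 0.04 (SD, n = 3) and 10.92 ± 0.09 (SD, n = 3). The p27-/- change from WT was 0.35 ± 0.09 (SE), with an interval of 0.15 to 0.54 and an adjusted p of 0.0346 in limma. Compound mutants against WT gave 0.08 (interval -0.11 to 0.28, adjusted p = 0.683 in limma). Compound mutants against p27-/- gave -0.27 (interval -0.47 to -0.06), with an unadjusted p of 0.0157 and an adjusted p of 0.548 in limma. The p27-/- call held in 8 of 19 other settings, with the change between 0.29 and 0.41 in all of them. Single libraries decided it: the call was lost without WT replicate 3 (adjusted p = 0.0675 in limma) or 4 (0.0882), without p27-/- replicate 1 (0.112), 2 (0.082) or 3 (0.123), and without compound mutant replicate 2 (0.0543).

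The ranges did not overlap between p27-/- and WT for 2 of the 6 genes (Cdh1 and Epcam), where 20.6% of all tested genes do not overlap. Between the compound mutants and WT these were Cdh1 and Krt18, both lower (2 of 6, against 15.0% of all tested genes). Between the mutant genotypes they were Cdh2, which was higher in the compound mutants, and Epcam and Krt18, which were lower (3 of 6, against 15.3%).

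**Figure D2:**
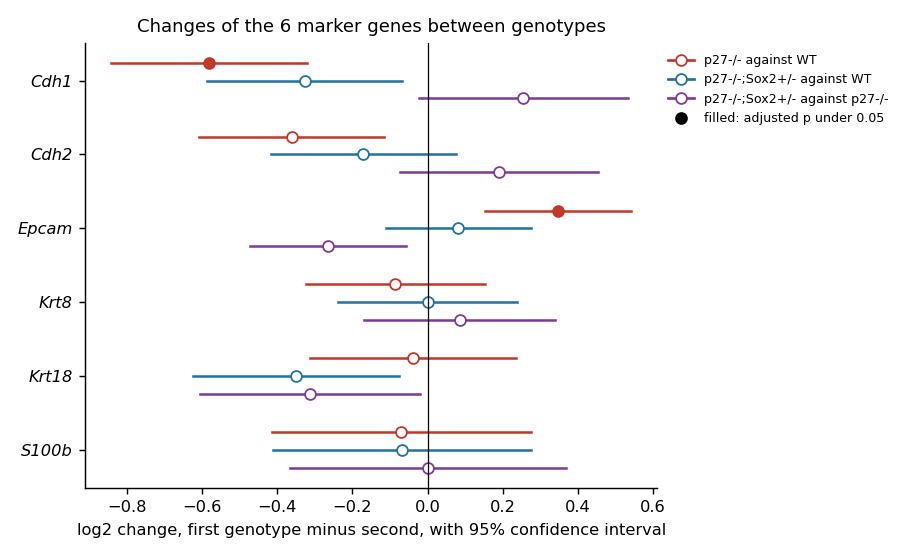
Log2 change of each gene (horizontal axis) in 3 comparisons, the first-named genotype minus the second, with 95% confidence intervals from limma; filled points have an adjusted p under 0.05. Filled points are seen for Cdh1 (-0.58) and Epcam (0.35) in p27-/- against WT, and the Krt8 and S100b intervals cover 0 in all 3 comparisons.

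Keratins 8 and 18 are obligate partners in the filaments of simple epithelia. Krt8 log2 values were 7.88, 7.76, 7.76 and 7.65 in WT, 7.65, 7.85 and 7.53 in p27-/-, and 7.91, 7.75 and 7.63 in the compound mutants. All 3 genotypes overlapped. The differences were -0.09 for p27-/- against WT (interval -0.32 to 0.15, adjusted p = 0.677 in limma), 0.00 for compound mutants against WT (interval -0.24 to 0.24, adjusted p = 1) and 0.09 between the mutants (interval -0.17 to 0.34, adjusted p = 0.985).

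Krt18 log2 values were 8.69, 8.40, 8.45 and 8.20 in WT, 8.36, 8.65 and 8.18 in p27-/-, and 8.13, 8.04 and 8.09 in the compound mutants. The compound mutants were the lowest 3 of the 10 libraries, and WT and p27-/- overlapped. The difference of the compound mutants was -0.35 from WT (interval -0.62 to -0.08, unadjusted p = 0.0156 and adjusted p = 0.161 in limma). From p27-/- it was -0.31 (interval -0.61 to -0.02, unadjusted p = 0.0378 and adjusted p = 0.694 in limma). Neither passed the test across all genes, and p27-/- against WT gave -0.04 (interval -0.31 to 0.24, adjusted p = 0.89 in limma).

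On a plain log2 scale, the difference of 2 genes read in the same library does not depend on how that library was scaled. The transformation of these values is not given, so this may hold only in part here. In WT, Krt18 exceeded Krt8 by 0.67 ± 0.11 log2 units (SD over 4), with a range of 0.55 to 0.81. In p27-/- lobes the excess was 0.72 ± 0.07 (SD over 3), and in the compound mutants 0.32 ± 0.12 (SD over 3), whose highest value of 0.46 was below the lowest of the other genotypes. Epcam exceeded Cdh1 by 2.74 ± 0.08 (SD, n = 4) in WT, by 3.66 ± 0.25 in p27-/- (SD over 3) and by 3.14 ± 0.20 in the compound mutants (SD over 3). The 3 genotypes did not overlap in this difference, with ranges of 2.65 to 2.81, 3.49 to 3.94 and 2.94 to 3.34, and the compound mutants lay between WT and p27-/-. Epcam and Cdh1 moved in opposite directions in p27-/-, so the separation of p27-/- from WT follows from those values and adds no support. For Cdh2 minus Cdh1 all 3 genotypes overlapped (2.11 to 2.90 in WT, 2.53 to 3.07 in p27-/-, 2.59 to 2.825 in compound mutants). For Epcam minus Krt8 the compound mutants (2.95 to 3.38) overlapped both WT (2.97 to 3.27) and p27-/- (3.29 to 3.67). These pairs were chosen with the values in view and are given as descriptions.

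**Figure D3:**
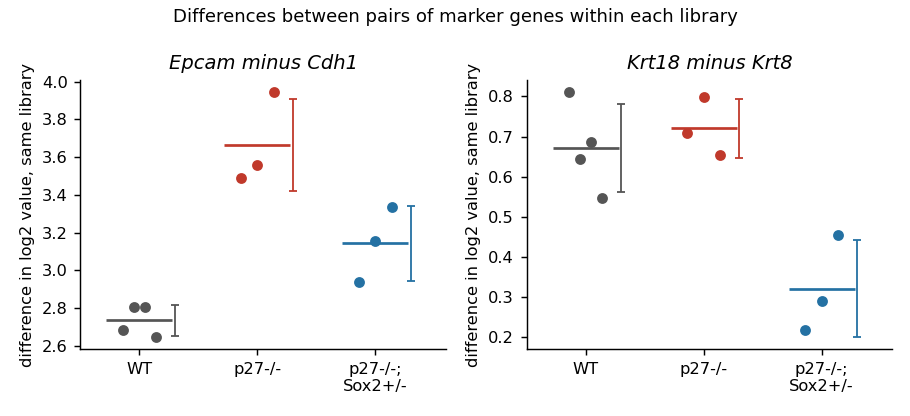
Difference between the log2 values of 2 genes in the same library (vertical axis), Epcam minus Cdh1 and Krt18 minus Krt8, by genotype, with group means and ± 1 SD (n = 4, 3 and 3). The Epcam to Cdh1 difference separates the 3 genotypes (means 2.74, 3.66 and 3.14), and the Krt18 to Krt8 difference is lowest in p27-/-;Sox2+/- (mean 0.32).

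S100b was the lowest of the 6 genes. Its log2 values were 4.97, 4.86, 4.78 and 5.05 in WT, 4.82, 4.85 and 4.85 in p27-/-, and 4.70, 4.49 and 5.33 in the compound mutants. The genotypes overlapped, and the compound mutant group held both the lowest and the highest library. The differences from WT were -0.07 in p27-/- (interval -0.41 to 0.27, adjusted p = 0.833 in limma) and -0.07 in the compound mutants (interval -0.41 to 0.27, adjusted p = 0.868 in limma), and the mutants differed from each other by 0.00 (interval -0.37 to 0.37, adjusted p = 1). Pituicytes of the posterior lobe and Schwann cells also carry S100B. The compound mutant library with the high S100b value, replicate 3, had a posterior lobe marker level of 0.56, against -0.58 and -0.66 in the other 2, and the part of that tissue in the S100b values was not tested. The Schwann cell and oligodendrocyte genes Mag, Mog and Sox10 were below the minimum for testing, with 3.45 as their highest value in any library, and none of the 3 tested genes of that list passed in any comparison (0 had an unadjusted p under 0.05). Within genotypes, the SD of S100b was 0.25, a spread larger than that of 85.4% of the 1001 genes of like level.

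Per kilobase of exon, the order of the genes was the same in every genotype mean: Epcam, Krt18, Cdh2, Krt8, Cdh1 and S100b. Epcam had a level of 9.81 ± 0.15 (SD, n = 4) in WT on the log2 scale per kilobase, and in every library it was above at least 97.9% of the tested genes with a known exon length. Krt18 (7.95 ± 0.20) and Cdh2 (7.65 ± 0.26) overlapped in WT and could not be ordered there. Krt8 (6.91 ± 0.09), Cdh1 (5.91 ± 0.11) and S100b (4.342 ± 0.119) followed without overlap between neighbours. Cdh1 thus stood near the middle of all tested genes, between the 51.3 and 55.8 percentiles in WT and between 36.6 and 45.6 in p27-/-. S100b stood between the 19.3 and 31.1 percentiles over all libraries.

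The 15 pairs among the 6 genes, and each gene with the mean levels of 9 marker lists, were correlated over the 10 libraries, 69 relations in all. Cdh2 and Epcam varied in opposite directions: Pearson's r was -0.857 (permutation p = 0.00146, adjusted p = 0.0485) and Spearman's rho was -0.939 (permutation p = 0.00031). Epcam separated p27-/- from every other library, so these p-values also count the genotype difference and do not measure a relation apart from it. The adjusted p of r is shared with 2 relations that are not read below, and it depends on them. Without WT replicates 3 and 4, the libraries farthest from the median Cdh2 value, r was -0.864, and without WT replicate 2 it was -0.867. The r of the deviations from the genotype means was -0.72 with all libraries and -0.231 without WT replicate 2, so within genotypes the relation rests on that library. WT replicate 2 had the lowest Cdh2 and the highest Epcam of the WT libraries, as well as the high anterior lobe markers given above, whose part was not tested. No other pair among the 6 genes passed the adjusted threshold. Krt8 and Krt18 had r of 0.475 and rho of 0.479 (permutation p = 0.163 and 0.166, adjusted p = 0.485 for r), with 0.836 for deviations from the genotype means and 0.781 without p27-/- replicate 3 and compound mutant replicate 1. Cdh1 and the mean level of the other stem cell markers each split WT from the mutants, so their relation cannot be tested over all libraries. Within genotypes their r was 0.493, and it was -0.0462 without p27-/- replicate 3 and 0.166 without p27-/- replicate 1. The mean level of 7 proliferation genes split the libraries by genotype (-0.61 to -0.23 in WT, 0.44 to 0.81 in p27-/-, -0.13 to 0.24 in compound mutants), so a relation with it cannot be tested over all libraries. The other 2 of the 3 relations whose r had an adjusted p under 0.05 were with this level, for Epcam and for Cdh1, and their values over all libraries are not read for that reason. Within genotypes, the deviations of Epcam and of this level had r of 0.687 (0.407 without WT replicate 2), and those of Cdh1 and this level had r of -0.155 (0.433 without p27-/- replicate 3 and -0.491 without WT replicate 2), given as descriptions.

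**Figure D4:**
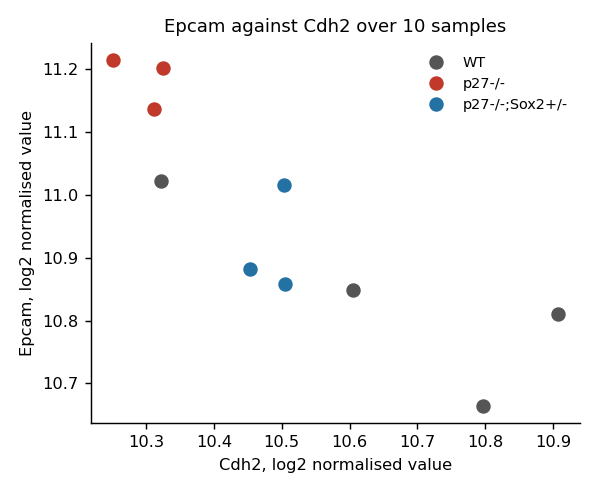
Epcam against Cdh2, both as log2 normalised values, in the 10 libraries coloured by genotype. The 3 p27-/- libraries lie at the upper left, and over all 10 libraries Pearson's r is -0.857.

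The genes whose log2 values ran closest to each of the 6, by Pearson's r over the 10 libraries and with no test, were found for all tested genes with a symbol. For Cdh1 these were Gm8378, Cyp2f2, Ahnak, LTO1 and Zfp750 (r from 0.93 to 0.94), and Cyp2f2 is also on the list of stem cell markers. For Epcam they were Jpt2, Jpt1, Tmsb10, Gnl3 and Vbp1 (0.94 to 0.97). For Cdh2 they were Pirt, BC060267, Vipr2, Mbd5 and Lrrc8d (0.94 to 0.95). For Krt18 they were Ergic3, H2-DMa, Glmp, Dynll1 and Clpp (0.87 to 0.94), and for Krt8 Acvr2b, Zdhhc8, Nceh1, Sp2 and Tcof1 (0.85 to 0.90), so neither keratin was among the closest 5 of its partner. For S100b they were Gm7008, Trib2, Cacng5, Galnt16 and Vwa3a (0.86 to 0.92).

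Among other stem cell markers of the pituitary, 21 of 24 were tested. In p27-/- against WT 4 fell and 0 rose, with 18 of 21 estimates below 0 and a median of -0.34, beside 0.01 over all tested genes and 4.62% of all genes called lower. The 4 were Aldh1a1 (retinoic acid synthesis) at -0.998 ± 0.194 (SE), Nes (the intermediate filament nestin) at -0.76 ± 0.16, Cyp2f2 (a cytochrome P450) at -0.69 ± 0.15 and Rbpms (an RNA-binding protein) at -0.65 ± 0.13, with adjusted p of 0.00876, 0.0114, 0.0186 and 0.0126 in limma. Each of the 4 calls was lost without p27-/- replicate 3 (adjusted p up to 0.0738), and that of Rbpms also under a fit with the replicate number as a block. In the compound mutants against WT 4 fell and 0 rose, with a median of -0.33, where 1.88% of all genes were called lower. Sox2, for which these mice are heterozygous, is 1 of the 21 and not of the 4, so its lower value there adds no support. Lcn2 (lipocalin 2) was at -1.71 ± 0.35, Aldh1a1 at -0.90 ± 0.19, Nes at -0.80 ± 0.16 and Cpxm2 (a carboxypeptidase-like protein) at -0.65 ± 0.11, with adjusted p of 0.0209, 0.0256, 0.0177 and 0.00763 in limma. All 4 of these calls were lost without compound mutant replicate 2, those of Nes and Aldh1a1 also without compound mutant replicate 1, that of Lcn2 without compound mutant replicate 3, and those of Aldh1a1 and Lcn2 without WT replicate 4. Those of Nes, Aldh1a1 and Lcn2 were also lost under the replicate block. Sox9, chosen after its values were seen because it defines these cells, differed by -0.17 in p27-/- (adjusted p = 0.337) and -0.08 in the compound mutants (adjusted p = 0.739) in limma. None of the 21 passed between the mutant genotypes (3 had an unadjusted p under 0.05).

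Of 11 tested desmosome and keratin-linker genes, 3 fell in p27-/- against WT and 0 rose, with a median of -0.26 and 10 of 11 estimates below 0. Dsp (desmoplakin, which ties keratin to desmosomes) was between 9.35 and 9.76 in WT, between 8.54 and 9.12 in p27-/- and between 8.62 and 9.12 in the compound mutants, so both mutant groups lay below WT. It fell by 0.75 in p27-/- (adjusted p = 0.00876 in limma) and by 0.70 in the compound mutants (adjusted p = 0.0229 in limma). The p27-/- call of Dsp was lost without p27-/- replicate 3 (adjusted p = 0.057), and the compound mutant call without WT replicate 3 or 4 or compound mutant replicate 2 or 3 or under the replicate block (adjusted p up to 0.133). Dsg2 (a desmosomal cadherin) at -0.33 and Dst (dystonin, a cytoskeletal linker) at -0.32 also passed in p27-/-, with adjusted p of 0.0343 and 0.0467 in limma, but were lost in 8 and 14 of 19 other settings. In the compound mutants 1 fell (Dsp) and 1 rose, Pnn, whose protein pinin is known mainly from nuclear RNA processing, at 0.39 (adjusted p = 0.037 in limma, lost in 10 of 19 other settings).

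Of 17 adherens junction partners, 2 fell in p27-/-: Vcl (vinculin) at -0.43 and Ctnna1 (alpha-catenin) at -0.30, with adjusted p of 0.0333 and 0.0436 in limma, lost in 8 and 14 of 19 other settings. In the compound mutants 1 rose, Nectin1 (a junctional immunoglobulin-like receptor) at 0.45 (adjusted p = 0.0498 in limma, lost in 13 of 19 other settings). Of 13 tested further cadherins, 2 rose in p27-/-: Cdh4 (R-cadherin) from 6.53 to 7.31 in WT against 7.43 to 7.85, a change of 0.71 ± 0.16 (SE) with an adjusted p of 0.0205 in limma, and Cdh24 at 0.50 (adjusted p = 0.0337, lost in 7 of 18 other settings). The Cdh4 call was lost without p27-/- replicate 1 or 3 and under the replicate block, with adjusted p up to 0.109. The medians of these lists were -0.08 and -0.18 in p27-/- and -0.07 and -0.04 in the compound mutants.

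Of 6 tested further keratins, Krt7, another keratin of simple epithelia, fell in the compound mutants. It was between 7.24 and 7.55 in WT, between 6.76 and 7.29 in p27-/- and between 6.47 and 6.59 in the compound mutants, which were below every other library. The change from WT was -0.82 ± 0.14 (SE, adjusted p = 0.00729 in limma), lost without compound mutant replicate 2 (adjusted p = 0.0509), and no keratin on the list passed in p27-/- (2 had an unadjusted p under 0.05). Of 15 epithelial surface genes, St14 (the protease matriptase) passed in p27-/- at -0.43 (adjusted p = 0.0441 in limma, lost in 13 of 19 other settings). Cd24a, a surface glycoprotein, was between 11.78 and 12.21 in WT, 12.19 and 12.26 in p27-/- and 11.40 and 11.67 in the compound mutants. It was lower in the compound mutants than in p27-/- by 0.72 on the log2 scale, a difference of -0.72 ± 0.12 (SE) with an adjusted p of 0.0378 in limma (0.0637% of all genes were called lower here), lost in 10 of 19 other settings, among them leaving out any 1 of the 6 mutant libraries.

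The 10 tested epithelial transcription and splicing factors had a median of -0.06 in p27-/-, and none passed in the compound mutants (1 had an unadjusted p under 0.05 in limma). Of 7 tested factors of epithelial-mesenchymal transition, 2 rose and 1 fell in p27-/-. Prrx1 was between 9.25 and 9.59 in WT and between 9.83 and 9.95 in p27-/-, a change of 0.48 ± 0.10 (SE, adjusted p = 0.0135 in limma), lost without p27-/- replicate 2 or 3. Snai2 rose by 0.54 ± 0.14 (SE, adjusted p = 0.0338 in limma) and Zeb2 fell by 0.67 on that scale (adjusted p = 0.0385 in limma), and these were lost in 5 and 6 of 19 other settings. Both are known as repressors of Cdh1 that bind the E-box letters shown above, and Zeb1, of the same family, was at -0.07 (adjusted p = 0.791). Of 7 tested further S100 genes, S100a4 rose in p27-/- at 0.58 (adjusted p = 0.037 in limma, lost in 8 of 18 other settings).

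**Figure D5:**
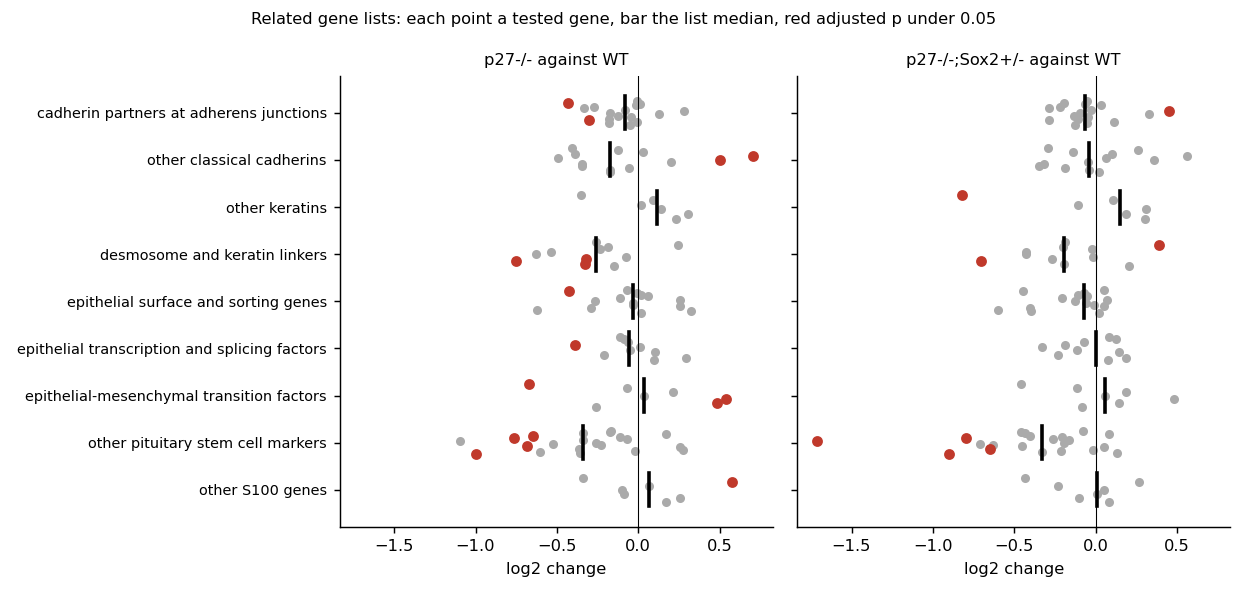
Log2 change of every tested gene of 9 related lists (points), with list medians (black bars), in p27-/- against WT (left) and p27-/-;Sox2+/- against WT (right); red points have an adjusted p under 0.05 in limma. Of these 9 lists the stem cell marker list has the lowest medians, -0.34 and -0.33, with 4 red points on each side. Lists not plotted had lower medians, among them posterior lobe (-0.65 and -0.62) and fibroblast and mural genes (-0.45 and -0.35).

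Markers of other cells in the lobe moved with genotype as follows. All 7 endothelial estimates were below 0 in p27-/- (median -0.39), where Kdr and Flt1, the receptors of vascular endothelial growth factor, fell by 0.83 and 0.75 on the log2 scale (adjusted p = 0.00966 and 0.029 in limma). In the compound mutants Kdr was at -0.67 and Flt1 at -0.80 (adjusted p = 0.0459 and 0.0379 in limma), lost in 12 and 8 of 19 other settings. There 6 of 7 estimates were below 0, and Cdh5 was above it, at 0.10 (adjusted p = 0.708 in limma). Against p27-/- Cdh5 was at 0.49 in the compound mutants (adjusted p = 0.23 in limma). The list's mean centred level ran from -0.03 to 0.43 in WT, -0.37 to -0.03 in p27-/- and -0.29 to 0.14 in the compound mutants. Of 8 fibroblast and mural genes 2 fell in p27-/- (Pdgfra and Lum, at -0.75 each), with list levels of 0.01 to 0.42, -0.55 to 0.19 and -0.47 to 0.17. The medians of this list were -0.45 in p27-/- and -0.35 in the compound mutants. None of 9 posterior lobe genes passed (3 had an unadjusted p under 0.05 in each comparison with WT), with medians of -0.65 and -0.62 and list levels of -0.64 to 0.79, -0.34 to -0.05 and -0.66 to 0.56. Of 8 anterior lobe genes Fshb fell in both mutant genotypes (-2.04 and -2.27), and the list levels were -0.32 to 1.52, -0.71 to 0.54 and -0.62 to 0.05. None of 7 leukocyte genes passed in p27-/- (0 had an unadjusted p under 0.05) or in the compound mutants (2 did). Of 6 melanotroph genes, Pcsk2 rose by 0.53 and Pcsk1 fell by 0.45 in p27-/- (adjusted p = 0.0352 and 0.0206 in limma), Pcsk1 fell by 0.42 in the compound mutants (adjusted p = 0.0498), and Pomc differed by 0.31 in p27-/- and -0.03 in the compound mutants without passing. The calls of Kdr, Flt1, Pdgfra, Lum, Fshb, Pcsk1 and Pcsk2 were each lost in 1 to 14 of 19 other settings, that of Kdr in p27-/- without p27-/- replicate 2. All 7 proliferation genes rose in p27-/-, with a median of 0.87, and 2 of 7 (Mki67 at 1.36 and Top2a at 1.16) in the compound mutants. The part of these tissues and of dividing cells in the levels of the 6 genes was not tested.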

How the data were processed

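Total RNA of dissected ILs was amplified with an Ovation RNA-seq V2 kit and sequenced on a HiSeq4000. The submitters' processing notes name STAR 2.5.2a, RSEM 1.3.30 and DESeq2 1.18.1. The authors deposited 1 table of normalised log2 values (-1.89 to 21.50) for 29527 genes, sample means 4.35 to 4.37. Their transformation is not given in the sources used here, and some values are below 0, which log2(count + 1) cannot give. Counts were not used, so count tests and depth intervals could not be made.

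The 17268 genes with a mean of at least 10 (3.32 on the log2 scale) were fitted over all 10 libraries in limma 3.58.1 (R 4.3.3, mean-variance trend), after a check on simulated data, with Benjamini-Hochberg adjustment and a threshold of 0.05. Genotypes and replicate numbers came from the sample labels. Correlations used 100000 permutations, two-sided, adjusted over 69 pairs. Values per kilobase used the union of exons of GENCODE M1 (NCBIM37). Symbols came from the Ensembl identifiers (22709 matched), and promoters and positions from RefSeq (GRCm38.p6). Named genes were the 6 genes, Cdkn1b and Sox2, up to 4 genes past the threshold with the smallest p per list and comparison (otherwise the 2 of highest mean), and the 5 closest by r. The 6 genes and the lists were chosen with earlier results of these data known. Alternatives were each replicate left out, 2-group fits, median centring or quantile normalization of the values, no filter or a minimum of 50, Xist as a covariate, a replicate block, array weights, and no trend. Single genes of 2 lists are not reported here.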

Additional observations from a re-analysis of the deposited data

Results flagged for a closer look

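In the WT group, 15 measures were examined for a library far from the other 3 (the 6 genes and 9 marker list levels), and 1 was found. The mean level of the 7 proliferation genes in WT replicate 2 was -0.23, against -0.61 to -0.58 in the other 3, and its gap to the nearest was 0.942 of the group's range, above Dixon's 95% critical value for 4 samples. The rule passes about 1 in 20 measures by chance where these are independent. The 15 measures come from the same 4 libraries, so the part of chance in the 1 found was not tested. WT replicate 2 also had the highest anterior lobe marker level (1.52), the lowest posterior lobe marker level (-0.64), the lowest Cdh2 (10.32) and the highest Epcam (11.02) of the WT libraries. None of these passed the same rule, which with 4 samples can miss a real difference. Without it, the p27-/- against WT difference was -0.54 for Cdh1, -0.47 for Cdh2 and 0.41 for Epcam, with adjusted p of 0.023, 0.00803 and 0.0136 in limma.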

How the results depend on the processing

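The fall of Cdh1 in p27-/- held its direction in 19 of 19 other settings and its call in 18 (change -0.68 to -0.45 with 1 library left out, adjusted p 0.0147 to 0.0757). Epcam kept its direction in 19 of 19 and its call in 8. Its change stayed at 0.35 in the 2-group fit (adjusted p = 0.0616), without the trend (0.051) and without the filter (0.058), was 0.29 after quantile normalization (0.054) and 0.29 under the replicate block (0.14), and ran from 0.29 to 0.41 (0.0136 to 0.123) with 1 library left out. In these 5 settings 1 of the 6 genes passed instead of 2, and 0 to 3 with 1 library left out. Cdh2 ran from -0.47 to -0.28 with 1 library left out. The cause of these losses was not tested. With 1 library left out, a choice made after seeing the data, r of Cdh2 and Epcam ran from -0.921 to -0.809 over all libraries and from -0.856 to -0.231 within genotypes, the latter without WT replicate 2.

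Estimates near 0 changed sign. With array weights Krt18 in p27-/- against WT was 0.0248, Krt8 in compound mutants against WT was 0.0199, and S100b between the mutants was -0.19. Median centring gave Krt8 0.0112 and S100b -0.0052, quantile normalization gave S100b -0.0064, and the Xist covariate gave Krt8 0.0168. With 1 library left out, Krt18 in p27-/- against WT ran from -0.16 to 0.0691, Krt8 in compound mutants against WT from -0.072 to 0.065, and S100b from -0.31 to 0.11 against WT and from -0.24 to 0.18 between the mutants. S100b had no value at a minimum mean of 50, which it does not reach.

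Over all genes, 1343 passed in p27-/- against WT, 807 in the 2-group fit, 831 without the filter, 595 under the replicate block and 403 to 1709 with 1 library left out. In compound mutants against WT 468 passed, 260 in the 2-group fit, 1240 with array weights, 209 under the block and 80 to 658 with 1 left out. Between the mutants 25 passed, 45 in the 2-group fit, 8 without the trend, 283 with array weights, 15 after quantile normalization, 6 without the filter, 2 under the block and 0 to 41 with 1 left out. Of the list genes called, 6 of 31 in p27-/- against WT, 1 of 14 in compound mutants against WT and 0 of 1 between the mutants held in every other setting, all of them proliferation genes.

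The block used replicates 1 to 3 of each genotype and left out WT replicate 4. Deviations of same-numbered libraries had correlations over genes of -0.24 to 0.18, and those of differently numbered libraries -0.19 to 0.26. No pairing by number was seen, but these are deviations from group means of few libraries, and a shared batch was not tested. Among the 6 genes the block changed no call but that of Epcam. The table gives no depth for single libraries, and with 3 or 4 mice a group, every log2 difference of the 6 genes up to 0.25 in size had an interval that covers 0.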
